A study of Canis lupus familiaris with 34 samples.

Results

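The genes described here are 10 genes that are strongly expressed in macrophages: LYZ, C1QA, C1QB, C1QC, CD14, CD68, CD163, CSF1R, TYROBP and LAPTM5. They were chosen by symbol, and 20 of the 43035 probe sets on the Affymetrix Canine_2 array carried one of those symbols. All 10 genes had a probe set over log2 5 on at least 3 of the 34 arrays, the filter that left 7849 genes for testing. The annotated gene identifiers of 9 of the 10 were found in the gene table used for names, and that of CD68 was not, so its symbol is the array annotation's own.

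Macrophages are phagocytes that derive from blood monocytes or from precursors seeded before birth, and in bone they share a lineage with osteoclasts, the multinucleate cells that resorb bone. CSF1R, the receptor for the growth factors CSF1 and IL34, keeps the lineage alive. TYROBP, also called DAP12, is a membrane adaptor that passes on signals from receptors such as TREM2. LYZ is the bactericidal enzyme lysozyme, and C1QA, C1QB and C1QC encode the chains of C1q, the recognition molecule of the classical complement pathway, which macrophages make in tissues. CD14 presents lipopolysaccharide to TLR4, CD163 takes up haemoglobin bound to haptoglobin, CD68 is a heavily glycosylated lysosomal membrane protein, and LAPTM5 is a lysosomal membrane protein of blood cells. Several of these genes are not confined to macrophages: LAPTM5 is found in most leukocytes, TYROBP in natural killer cells, and CD68, CSF1R and TYROBP in osteoclasts.

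The study measured canine osteosarcoma, a malignant bone tumour of dogs, on 34 arrays from 31 dogs. Lines grown from primary tumours took 25 arrays from 24 dogs aged 2.0 to 11.19 at diagnosis where stated. These were 10 Rottweilers, 7 Golden Retrievers, 2 German Shepherds, 1 each of Alaskan Malamute, Great Pyrenees, Mastiff and Saint Bernard, and 1 dog of unknown breed. Lines from metastases took 3 arrays from 3 dogs aged 2.39 to 6.31, 2 Rottweilers and 1 Rhodesian Ridgeback. The labels describe the lines as primary tumour cells or cultures that had been frozen, with no passage number, and no label names an agent added to a culture. The labels state no unit for age. Treatment labels of the dogs, where present, were abbreviations such as SOC, PALL and AMP that the labels do not spell out. The remaining 6 arrays held snap-frozen primary tumour tissue, 1 per dog. Tissue 1 came from a Great Pyrenees (sex label F, age 7), tissue 2 from a Belgian tervuren (MC, 6.1) and tissue 3 from a Golden Retriever (FS, 2.7). Tissue 4 came from a Borzoi (F, 11.91), and tissues 5 (FS, 6.72) and 6 (FS, 2.67) from Golden Retrievers. Tissues 2, 3 and 4 carried the treatment label SOC, and the others carried none. The dogs of tissues 5 and 6 also gave a primary line each, and the former gave a pair of line arrays that were averaged, which left 24 primary lines.

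All values are log2 of the deposited GCRMA intensity. Array medians were 3.01 to 3.09 in lines and 3.05 to 3.12 in tissues, so a level below log2 5 lies within reach of background. Titles carried 1 of 3 prefixes, whose meaning the labels do not give: title prefix 3 held all tissues and 2 line arrays, and the other lines held prefixes 1 and 2. A fit within prefix 3 alone and a fit over all arrays with the prefix as a covariate are called the title prefix fits. The difference between the 3′ and 5′ actin probe sets, which grows as RNA degrades, ran from 1.27 to 4.61 in tissues and from -0.35 to 4.04 in primary lines. The tissues expressed bone-forming genes, with bone sialoprotein IBSP from 6.67 to 14.496, alkaline phosphatase ALPL from 7.29 to 12.41 and osteopontin SPP1 from 11.10 to 13.89, and 7 to 9 of 12 osteoblast genes were over log2 5 in each.

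All 10 macrophage genes were far higher in the tumour tissues than in the primary lines. In limma, fitted over 7849 genes with Benjamini-Hochberg adjustment, 10 of 10 were lower in lines at an adjusted p under 0.05 and at least 2-fold, where 711 of 7849 genes (9.06%) met that rule. The members' median difference, primary lines minus tissues, was -6.12, against -0.05 over all genes tested. For 7 of the 10 every tissue lay above every line, which held for 97 of 7849 genes (1.24%), and the exceptions were CD14, CD68 and LAPTM5. Of the members 9 did not pass the filter in lines alone and entered through the tissues, where they were high. A gene that enters this way tends to be lower in lines, so both shares of all genes are no fair yardstick for the members. Without the filter on dim probe sets 10 of 10 were still lower, as were 917 of 15115 genes. In bulk RNA fewer macrophages and less RNA per macrophage cannot be told apart. Levels in lines were near background for most members, so the size of a fold depends on how background was set: with a floor at an intensity of 16 the difference of C1QA was -5.89 and that of CSF1R -1.42, both still called. It also depends on the probe set, and the least different kept probe set gave -3.50 for C1QA, -3.40 for CD163 and -4.35 for LAPTM5, each still called.

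**Figure D1:**
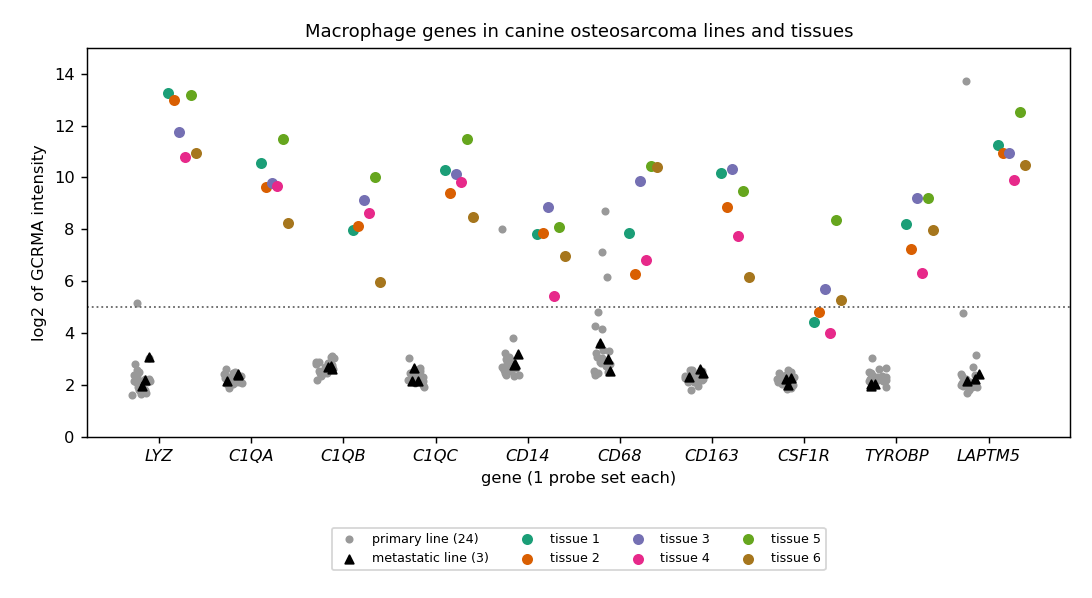
Log2 of GCRMA intensity (vertical axis) of each of the 10 genes in 24 primary lines (grey dots, each 1 line), 3 metastatic lines (black triangles) and 6 tumour tissues (coloured dots), with the dotted line at log2 5. The tissues sit above all lines for 7 genes. Single grey dots reach tissue levels for CD14 and LAPTM5, and those of primary lines 4 and 14 do so for CD68.

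LYZ stood at 13.25, 12.98, 11.76, 10.80, 13.19 and 10.96 in tissues 1 to 6. In the 27 lines it ran from 1.60 to 5.14 with a median of 2.13. Tissues 1, 2 and 5 were high and tissues 3, 4 and 6 lower, and no tissue came near the lines. The difference was -9.89 (SE 0.35, adjusted p = 5.2e-21 in limma).

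The 3 C1q chains were high in every tissue and at background in every line. C1QA stood at 10.55, 9.63, 9.79, 9.68, 11.47 and 8.24 in tissues 1 to 6, and at most 2.62 in a line. C1QC stood at 10.28, 9.39, 10.12, 9.84, 11.47 and 8.47, and at most 3.03 in a line. Tissue 5 was the highest and tissue 6 the lowest for each of these chains, with 3.23 between them for C1QA and 3.01 for C1QC. C1QB stood at 7.98, 8.14, 9.12, 8.63, 10.01 and 5.97, and at most 3.11 in a line. Again tissue 5 was the highest and tissue 6 the lowest, here 4.04 apart, while tissue 1, next to the top for the other 2 chains, was next to the bottom. In limma C1QA was lower in lines by 201-fold (-7.65, SE 0.22, adjusted p = 6.8e-24), C1QC by 191-fold (-7.58, SE 0.22, adjusted p = 6.8e-24) and C1QB by 49.6-fold (-5.63, SE 0.27, adjusted p = 1.4e-17). In the gene table the 3 genes lie beside each other on 1 chromosome, as a cluster.

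CD163, the haemoglobin scavenger receptor, stood at 10.15, 8.88, 10.31, 7.75, 9.48 and 6.15 in tissues 1 to 6. Its 27 lines ran from 1.78 to 2.60. Tissues 1 and 3 were the highest and tissue 6 was the lowest by a wide margin, and the groups did not overlap (-6.53, SE 0.30, adjusted p = 7.1e-18 in limma). Its ligand partner haptoglobin (HP) did not pass the filter, and HMOX1, which breaks down the haem taken up, was lower in lines (-1.95, SE 0.66, adjusted p = 0.030 in limma). That HMOX1 call was lost without tissue 2 (-1.54, adjusted p = 0.109 in limma), without tissue 3 (-1.74, adjusted p = 0.086) and without tissue 5 (-1.85, adjusted p = 0.069).

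CD14 stood at 7.80, 7.85, 8.84, 5.41, 8.10 and 6.97 in tissues 1 to 6. Its lines had a median of 2.75 and reached 7.99, in primary line 4, while the next line was at 3.79. Tissue 3 was the highest and tissue 4 the lowest, and the overlap with the lines came from that single line (-4.51, SE 0.48, adjusted p = 1.0e-08 in limma). Its signalling partner TLR4 stood at 6.88, 6.63, 7.74, 5.50, 6.58 and 3.08 and was lower in lines (-4.56, SE 0.32, adjusted p = 4.5e-13 in limma). LY96, the TLR4 co-receptor also called MD-2, was over log2 5 in 27 of 27 lines, with means of 9.75 in primary lines and 8.77 in tissues (0.98, SE 0.39, adjusted p = 0.068 in limma). It was called without tissue 2 (1.19, adjusted p = 0.039 in limma), and turned to -1.26 in both title prefix fits (adjusted p = 0.340 and 0.194).

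On the probe sets used in the fit, CSF1R passed log2 5 in 3 of 6 tissues, whereas each of the other 9 members did so in 6 of 6. Another kept probe set fell below log2 5 in tissue 6 for C1QA (4.41) and CD163 (3.66), in tissue 4 for CD68 (4.95) and in tissue 3 for LAPTM5 (4.90). CSF1R stood at 4.42, 4.79, 5.70, 4.00, 8.35 and 5.27 in tissues 1 to 6, and its 27 lines ran from 1.84 to 2.57. Tissue 5 stood alone, 2.65 above tissue 3, the next in order. The groups did not overlap (-3.24, SE 0.30, adjusted p = 2.8e-10 in limma). Within title prefix 3 alone, with 2 line arrays, the difference was -3.32 (adjusted p = 0.118 in limma), so this call was lost there. Of its ligands, IL34 was over log2 5 in 23 of 27 lines, with means of 7.17 in primary lines and 5.54 in tissues (1.63, SE 0.68, adjusted p = 0.081 in limma). The difference of IL34 was 1.76 without primary line 4 and was called (adjusted p = 0.043 in limma), and it was -0.41 in both title prefix fits (adjusted p = 0.805 and 0.864). CSF1 was not among the genes tested.

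TYROBP stood at 8.22, 7.23, 9.22, 6.30, 9.19 and 7.98 in tissues 1 to 6, and its 27 lines ran from 1.91 to 3.03. Tissues 3 and 5 were highest and level with each other, and tissue 4 was lowest (-5.71, SE 0.23, adjusted p = 2.3e-19 in limma). TREM2, the receptor that signals through it, stood at 6.36, 6.498, 6.83, 3.97, 2.72 and 2.96, with a line mean of 2.11 (-2.78, SE 0.35, adjusted p = 3.4e-07 in limma). TREM2 was therefore near background in tissue 5, where TYROBP was among its highest values, and in tissue 6, and it was below log2 5 in tissue 4 too. These levels rest on 1 probe set. Without the filter on dim probe sets another stood for TREM2, at -1.34 and still called.

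LAPTM5 stood at 11.25, 10.93, 10.96, 9.89, 12.54 and 10.49 in tissues 1 to 6. Its 27 lines had a median of 2.10 and reached 13.74, in primary line 4. Tissue 5 was the highest tissue and tissue 4 the lowest, and that line exceeded every tissue (-8.27, SE 0.94, adjusted p = 4.1e-08 in limma).

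CD68 stood at 7.84, 6.28, 9.86, 6.79, 10.46 and 10.39 in tissues 1 to 6. Its 27 lines had a median of 2.97, and 3 of them exceeded log2 5. Tissues 3, 5 and 6 formed a high set and tissues 1, 2 and 4 a low one, and the highest line, primary line 4 at 8.70, lay above all of the low set (-5.01, SE 0.71, adjusted p = 2.4e-06 in limma).

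The prefix of the titles moved with the groups, so the same differences were taken within title prefix 3. There 9 of 10 members met the rule, as did 171 of 7849 genes (2.18%), from -4.999 for CD14 (adjusted p = 0.016 in limma) to -9.82 for LYZ (adjusted p = 0.0011), with the 3 C1q chains at -7.67, -5.57 and -7.70. CD163 was at -6.62, TYROBP at -5.86, LAPTM5 at -8.51 and CD68 at -6.17, each of the same size as over all arrays or larger. All tissues carried prefix 3, so a fit with title prefix as a covariate took the same differences from the same 2 line arrays. Only its estimate of spread differed, and there 10 of 10 members were called, as were 315 of 7849 genes (4.01%). Since 9 members entered through the tissues, the shares of all genes are no fair yardstick in these fits either. Arrays were not averaged in either fit, and 1 of those 2 line arrays came from the dog of tissue 5.

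Each of the 2 dogs with both a tissue and a line gave the same direction for every member. In the dog of tissue 5 the tissue exceeded its own line by 5.43 (CD14) to 10.61 (LAPTM5), with a median of 7.75. In the dog of tissue 6 the excess was 3.42 (CSF1R) to 8.85 (LYZ), with a median of 5.85. CD68 showed the same excess in both, at 7.96 and 8.03, whereas that of CD163 was 7.53 in the former and 3.83 in the latter.

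The 6 tissues differed among themselves in every member. The median range of a member over the tissues, highest minus lowest, was 3.33, against 1.64 over all genes tested, and the median SD was 1.16 against 0.61. The members were chosen with earlier results of these data known, and 9 of them passed the filter through the tissues. The values over all genes are therefore no fair yardstick, and nothing is read from the contrast. Ranges ran from 2.45 for LYZ to 4.35 for CSF1R. That of CSF1R rests on tissue 5, without which it was 1.70, and that of LAPTM5 was 1.36 without it, whereas those of CD68 (4.11) and CD163 (4.16) hardly depended on that tissue. Each tissue is 1 array, so these differences have no replicate and no test. For scale, the pair of line arrays of 1 dog differed by a median of 0.49, with a 95th percentile of 1.84, over 4865 genes with a mean over log2 7. That is a difference between 2 arrays of 1 line and not a range over 6 dogs, and 41.9% of all genes tested ranged over the tissues by more than this percentile, as did the 10 members. Those 2 line arrays also carried different title prefixes, 2 and 3, whereas all tissues carried prefix 3.

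**Figure D2:**
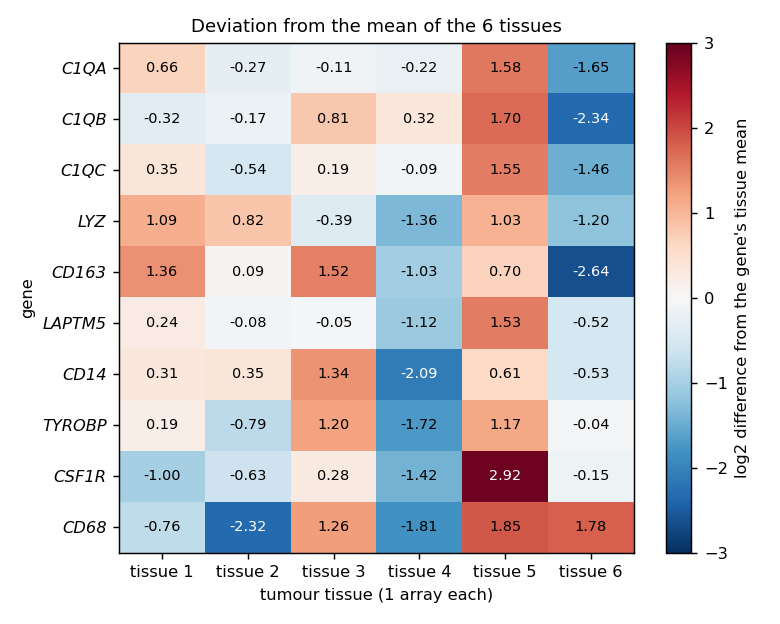
Log2 level of each gene in each tissue minus that gene's mean over the 6 tissues (1 array each); red cells are above the mean and blue cells below. Tissue 5 is above the mean for all 10 genes and tissue 4 below it for 9, while in tissue 6 CD68 (1.78) goes against CD163 (-2.64).

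In the mean of the 10 genes tissue 5 was the highest and tissue 4 the lowest. Averaged over the 10 genes, tissues 1 to 6 deviated from the tissue mean by 0.21, -0.35, 0.61, -1.05, 1.46 and -0.88. Over the 17 other macrophage genes tested the same deviations were 0.48, 0.36, 0.27, -0.33, 0.84 and -1.63, so tissue 5 was again the highest but tissue 6 was the lowest. Tissue 5 was the highest for 6 members (C1QA, C1QB, C1QC, CD68, CSF1R and LAPTM5), tissue 3 for CD14, CD163 and TYROBP, and tissue 1 for LYZ. Tissue 4 was the lowest for LYZ, CD14, CSF1R, TYROBP and LAPTM5, tissue 6 for the 3 C1q chains and CD163, and tissue 2 for CD68. These places depend on the probe set. Another kept probe set was lowest in tissue 6 for LYZ (8.51), tissue 3 for LAPTM5 (4.90) and tissue 4 for CD68 (4.95). Another was highest in tissue 6 for CD68 (11.44) and in tissue 1 for CD163 (7.82). The actin 3′ to 5′ differences of tissues 1 to 6 were 2.73, 2.72, 4.61, 1.76, 2.44 and 1.27, so the 2 tissues lowest in members had the smallest differences, and the part of RNA quality in the order was not tested.

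The low mean of tissue 4 and that of tissue 6 were made up in part of different genes. Among the genes below their tissue mean in both were LYZ (-1.36 and -1.20), CD163 (-1.03 and -2.64) and LAPTM5 (-1.12 and -0.52). In tissue 4 the deviation from the tissue mean was -2.09 for CD14, -1.81 for CD68 and -1.72 for TYROBP, but -0.089 for C1QC and 0.32 for C1QB. In tissue 6 it was -2.64 for CD163 and -2.34 for C1QB, but -0.045 for TYROBP and 1.78 for CD68. Tissue 6 minus tissue 4 was therefore 3.59 in CD68, -2.66 in C1QB and -1.61 in CD163. The members did not fix a single order of the tissues.

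How far members moved together is given by their correlations over the 6 tissues, which describe 6 arrays only and share those arrays. Across 45 pairs Pearson's r ran from -0.10 to 0.97, with a median of 0.56. The C1q chains followed each other most closely, at 0.85 to 0.97, and CD163 followed them at 0.72 to 0.75. CD14 followed TYROBP at 0.85, and CSF1R followed LAPTM5 at 0.86. CD68 stood apart: its r was 0.004 to 0.18 with the C1q chains, -0.06 with CD163 and -0.10 with LYZ, but 0.71 with CSF1R and 0.79 with TYROBP.

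The separate order of CD68 was seen with each of its 2 probe sets, which correlated at 0.97 over the tissues. The one not used in the fit stood at its highest, 11.44, in tissue 6. The 3 probe sets of CD163 past the filter correlated at 0.96 to 0.99, and all placed tissue 6 lowest. In all, 8 pairs of probe sets in 6 genes could be compared, with the lowest r at 0.75 for LAPTM5 and the others at 0.95 or more, and 5 pairs named the same highest tissue and 5 the same lowest. For CD163, CSF1R and LAPTM5 1 further probe set each did not pass the filter, and that of CD163 reached only 2.46 in any tissue.

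Osteoclast genes were looked at beside CD68 after its values were seen. ATP6V0D2, a subunit of the proton pump that osteoclasts use to acidify bone, stood at 5.72, 6.96, 9.57, 6.15, 10.19 and 10.78 in tissues 1 to 6. ACP5, the tartrate-resistant acid phosphatase of osteoclasts, stood at 9.85, 11.67, 12.17, 10.51, 13.17 and 13.24. For both the highest 3 tissues were 3, 5 and 6, the same as for CD68. Over the 6 tissues CD68 had an r of 0.90 with ATP6V0D2, 0.75 with ACP5 and 0.80 with TCIRG1, another pump subunit, while CD163 had -0.27, -0.33 and 0.11 with them. With the protease gene CTSK the r of CD68 was 0.48, with MMP9 0.66 and with CA2 0.42. The integrin subunit ITGB3 stood at 6.37 in tissue 1 and at most 3.32 in the others, unlike CD68. The likeness was not particular to CD68: CSF1R, on which osteoclasts also depend, had 0.70 with ATP6V0D2 and 0.72 with ACP5, and TYROBP had 0.84 with TCIRG1 and 0.69 with MMP9.

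**Figure D3:**
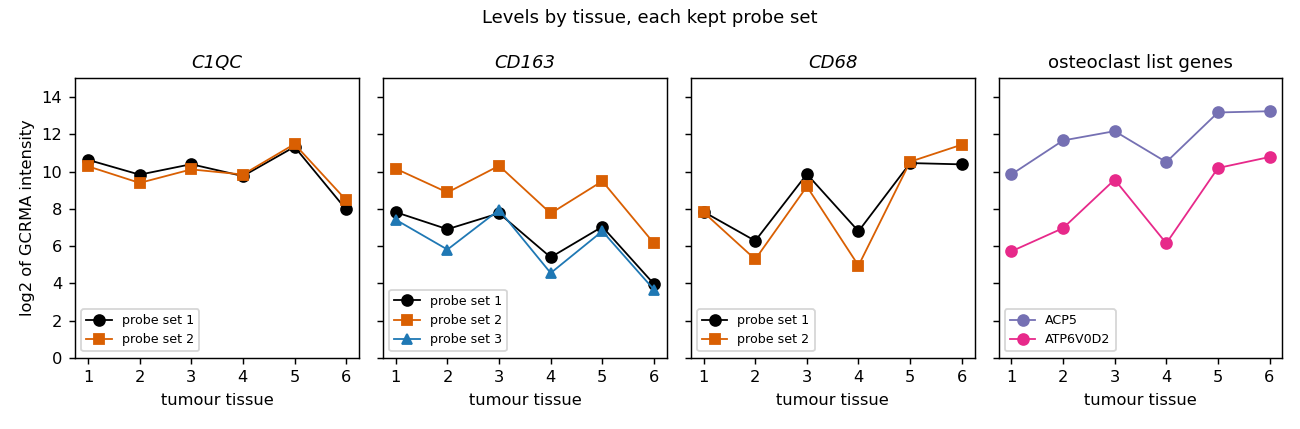
Log2 of GCRMA intensity in tissues 1 to 6 (1 array each) for every probe set past the filter of C1QC, CD163 and CD68, and for ACP5 and ATP6V0D2 of the osteoclast list. CD68, ACP5 and ATP6V0D2 are high in tissues 3, 5 and 6, whereas C1QC and CD163 are lowest in tissue 6.

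Other macrophage genes, listed from general knowledge, were mostly lower in lines as well. Of 41 listed genes 31 had a probe set and 17 were tested, of which 11 were lower in primary lines, 1 was higher and 5 did not pass, with a median difference of -3.50. Over all genes tested 711 of 7849 (9.06%) were lower, and without the filter on dim probe sets 18 of the 31 were. Most of the 11 were over log2 5 in no line and passed the filter through the tissues, so their count is no separate support. The lower ones included CYBB, the catalytic subunit of the phagocyte oxidase (-6.46, SE 0.36), the costimulatory protein CD86 (-6.00, SE 0.45) and the IgG receptor FCGR1A (-6.00, SE 0.32), with adjusted p of 6.2e-16, 1.5e-12 and 1.5e-16 in limma. SPI1, the transcription factor PU.1 of the myeloid lineage, stood at 3.08, 4.24, 5.57, 3.86, 7.81 and 5.43 in tissues 1 to 6 and was lower in lines (-2.33, SE 0.31, adjusted p = 1.0e-06 in limma). Like CSF1R, it was clearly highest in tissue 5 and below log2 5 in tissues 1, 2 and 4.

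AIF1, a calcium-binding protein of activated macrophages, stood at 8.50, 8.76, 8.95, 7.11, 9.31 and 4.84 in tissues 1 to 6. In its lowest value, tissue 6, it resembled the C1q chains and CD163. The listed gene that was higher in lines was GPNMB, a glycoprotein also made by other cells, by 2.44 (SE 0.68, adjusted p = 0.0087 in limma), and it was over log2 5 in 27 of 27 lines. HAVCR2, LGMN, SIRPA, TLR2 and APOE did not pass, and each was over log2 5 in at least 23 of the 27 lines.

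Of 15 ligands, co-receptors, adaptors and complement partners of the members, 10 were tested and 4 were lower in primary lines, with a median of -1.78. The 4 were TLR4, TREM2, HMOX1 and the central complement component C3. C3 stood at 7.28, 12.63, 5.22, 7.14, 9.61 and 3.42 in tissues 1 to 6, an order unlike that of the C1q chains in that tissue 2 was highest, and it was lower in lines (-4.46, SE 1.16, adjusted p = 0.0052 in limma). The C1 proteases that bind C1q were on in most lines: C1R was over log2 5 in 25 of 27 and C1S in 26 of 27, and neither passed (C1R -1.79, adjusted p = 0.218; C1S -1.72, adjusted p = 0.209 in limma). The C1 inhibitor SERPING1 and C2 were over log2 5 in 26 of 27 lines each and did not pass (-1.76 and -0.47, adjusted p = 0.178 and 0.681 in limma). With title prefix as a covariate SERPING1 was at -5.49 and called (adjusted p = 0.023 in limma), and so was C1R (-5.28, adjusted p = 0.048). In that fit HMOX1 (-2.79, adjusted p = 0.144 in limma) and C3 (-4.52, adjusted p = 0.19) lost their calls. Within title prefix 3 alone C1R was at -5.28 (adjusted p = 0.021 in limma), TREM2 at -2.90 (adjusted p = 0.219), HMOX1 at -2.79 (adjusted p = 0.158) and C3 at -4.52 (adjusted p = 0.250), so the call of C1R was gained and those of the latter 3 were lost. C3 also lost its call with every probe set tested (-1.57, adjusted p = 0.114 in limma), and TLR4 without the filter on dim probe sets (-0.48), where another probe set stood for it. With the floor at 16 TLR4 was at -2.22, TREM2 at -1.48 and C3 at -3.33, each called, whereas HMOX1 lost its call (-1.32, adjusted p = 0.061 in limma).

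Genes of other cell types also differed between tissues. Of 11 pan-leukocyte genes tested, 10 were lower in primary lines (median -3.54), and their mean deviation correlated with that of the members at 0.87 over the 6 tissues. The differences were -6.55 for the GTPase RAC2, -5.76 for CD48 and -4.79 for the adaptor LCP2, with adjusted p of 8.2e-17, 4.4e-18 and 1.8e-07 in limma. Genes such as RAC2 and CD48 were over log2 5 in no line and passed the filter through the tissues, so the count is no separate support. Over all genes tested 711 of 7849 (9.06%) were lower. That share is no fair yardstick here, nor for lists below that hold genes entering in the same way. For MHC class II 5 of 5 genes were lower (median -8.13), with an r of 0.75 with the members. DLA-DRA (-8.94), DLA-DQA1 (-8.65) and HLA-DRB1 (-8.13), with adjusted p of 5.6e-10, 6.0e-12 and 2.9e-07 in limma, differed most, and the invariant chain CD74 was highest in tissue 5 (13.48) and lowest in tissue 6 (8.59).

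T and NK cell genes were over log2 5 chiefly in tissue 5. Of 16 such genes with a probe set, 10 were over log2 5 in that tissue and at most 2 in any other, and the summed level over the 16 was 86.6 there and 41.1 to 49.7 in the others. CD3D stood at 9.997 in tissue 5 and at 4.88 at most elsewhere, and NKG7, a granule protein of killer cells, at 7.61 and 3.77 at most. TYROBP and LAPTM5, which such lymphocytes also express, were among their highest values in the same tissue, and the part of lymphocytes in this was not tested.

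Of 8 osteoclast genes tested, 4 were lower in primary lines (median -2.24), MMP9, ACP5, ATP6V0D2 and CA2. CA2 lost its call without any 1 of tissues 1, 3, 4, 5 and 6 (adjusted p from 0.050 to 0.081 in limma), with a floor at 16 (adjusted p = 0.067) and in both title prefix fits (-1.75, adjusted p = 0.674 and 0.761). All 7 endothelial genes tested were lower (median -5.32), with an r of 0.15 with the members. Of 4 neutrophil genes S100A9 (-3.43) and MPO (-1.56) were lower and LCN2 (3.69) was higher, with adjusted p of 1.1e-06, 0.019 and 0.031 in limma, and 0 to 3 of 10 neutrophil genes were over log2 5 in a tissue. Within title prefix 3 alone LCP2 (-4.83, adjusted p = 0.079 in limma) and S100A9 (-3.40, adjusted p = 0.262) lost their calls, and so did LCN2, which turned to -0.63 (adjusted p = 0.679). S100A8 did not pass (-1.78, adjusted p = 0.066 in limma), except without tissue 6 (-2.30, adjusted p = 0.025). LCN2 lost its call without tissue 2, 3, 4 or 6 (adjusted p from 0.052 to 0.072 in limma). Few genes of the remaining lists passed the filter: 1 plasma or B lineage gene, 1 T or NK gene, 2 dendritic and 1 mast cell gene were tested, of which 0, 0, 1 and 1 were lower in primary lines. None of 4 erythroid genes was over log2 5 on any array.

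Genes whose pattern over the 6 tissues was most like the members' mean were ranked by Pearson's r among 2366 genes that had a range over tissues of at least 2 and were over log2 5 in at least 3 tissues. The highest 10 were EPB41 (0.99), ITGB7 (0.97), STARD3NL (0.96), CD48 (0.94), RGS1 (0.94), SKIL (0.93), PYCARD (0.93), RALA (0.92), GPSM3 (0.92) and LOC480784 (0.92). Of these ITGB7, CD48, RGS1, SKIL, PYCARD and GPSM3 were lower in primary lines by the same rule, whereas STARD3NL and RALA were over log2 5 in 27 of 27 lines. RGS1, a regulator of G-protein signalling in leukocytes, stood at 11.12, 7.55, 11.19, 6.54, 11.91 and 6.40 in tissues 1 to 6. The lowest 5 were NAA16 (-0.98), FAM135A (-0.94), GTF3C3 (-0.93), ZNF451 (-0.92) and PLEKHA5 (-0.91). With 6 points and so many genes, values of this size describe the ranking only.

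Macrophage genes were rarely on in cell lines. With 1 probe set per gene, 6 of 270 pairs of a line and a member were over log2 5. Of pairs of a tissue and a member, 57 of 60 were. The 3 tissue pairs below log2 5 were CSF1R in tissues 1, 2 and 4. In 23 of 27 lines no member was over log2 5, and C1QA, C1QB, C1QC, CD163, CSF1R and TYROBP were over it in no line. With the threshold at log2 4 the count was 10 pairs in 6 lines, and at log2 7 it was 4 pairs in 2 lines. The same counts were not taken over all genes. Since 9 members passed the filter through the tissues, a low count in lines was nearly fixed beforehand, and these counts are a description only.

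**Figure D4:**
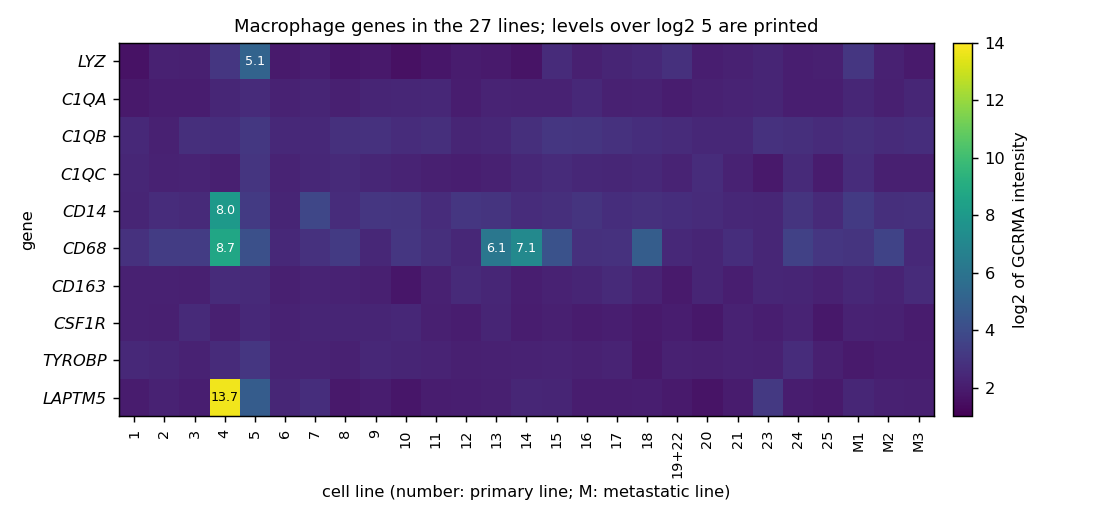
Log2 of GCRMA intensity (colour) of the 10 genes (rows) in the 24 primary lines (19+22 is the average of both line arrays of 1 dog) and 3 metastatic lines (M1 to M3). Printed values are those over log2 5: 3 in primary line 4, CD68 in lines 13 and 14, and LYZ in line 5.

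Primary line 4 alone held 3 of the 6 pairs. LAPTM5 stood at 13.74 there, 2.79 above the tissue median, CD68 at 8.70 (-0.15 from that median) and CD14 at 7.99 (0.17 from it). The rest of the set was off in that line, with LYZ at 3.05, C1QA at 2.37, CD163 at 2.58, TYROBP at 2.61 and CSF1R at 2.13. Line 4 therefore had a part of the members at tissue level and the others at the level of any line.

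The same line was high in genes of other cell types. Among endothelial genes PECAM1 and EMCN stood at 13.88 each, KDR at 10.81, EGFL7 at 10.77 and CLDN5 at 8.42, each the highest of all lines. Other endothelial genes were near background there, with VWF at 3.02, CDH5 at 3.88 and TIE1 at 2.31, although CDH5 was below log2 4 in every tissue too. CD86 stood at 6.70, the only line over log2 5 for it, and the osteoclast genes ACP5, ATP6V0D2 and TCIRG1 at 7.68, 6.54 and 10.17. ACP5 reached 8.34 in another line, and TCIRG1 was over log2 5 in 27 of 27 lines. Other genes of these lists were low in line 4, with MMP9 at 2.18, CYBB at 3.39, AIF1 at 2.83 and FCGR1A at 3.59. In line 4, 9 of 31 other macrophage genes were over log2 5, against a median of 8 in primary lines. For osteoclast genes it was 6 of 12, against a median of 2.5. Of the pan-leukocyte genes 2 of 19 were over log2 5 in line 4, the same as the median of primary lines. These were ARHGDIB at 8.71, the highest of all lines, and LCP1 at 10.12. They were over log2 5 in 12 and 21 of the 27 lines. The other 17 were below log2 5 in line 4, PTPRC at 2.54 among them. The summed log2 level over the 19 pan-leukocyte genes, 64.97, was the highest of the primary lines, and 90.6 to 132.9 in tissues. The myeloid factor SPI1 was at 2.58. Without line 4 the count of pairs over log2 5 was 3.

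The other pairs were single genes. CD68 stood at 7.11 in primary line 14 and 6.15 in primary line 13, with the next line at 4.82. LYZ stood at 5.14 in primary line 5 and at most 3.07 in any other. That line was also the highest of the 27 for C1QA (2.62), C1QB (3.11), C1QC (3.03) and TYROBP (3.03), and it was next to the highest for LAPTM5 (4.79) and CSF1R (2.49). These levels apart from LYZ lie below log2 5.

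Metastatic and primary lines could hardly be compared in these genes, since 9 of the 10 members were over log2 5 in fewer than 3 lines and passed the filter through the tissues. In limma 0 of 10 members were called, where 1 of 7849 genes (0.0127%) was, and 0 of 10 had an unadjusted p under 0.05, where 534 genes did, counts from which nothing is read about the members. Differences, metastatic minus primary, ran from -0.56 for CD68 (SE 0.95) to 0.19 for CD163 (SE 0.41). No member was over log2 5 in any of the 3 metastatic lines, whose highest values were 3.20, 3.60 and 2.79.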

How the data were processed

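The authors deposited 1 intensity per probe set and array, made with GCRMA per the submitters' processing notes, which as used here give no version or settings. These deposited intensities were linear, so they were turned into log2, and the floor of 1 altered no value. Names came from the platform annotation (29254 probe sets with 1 symbol, 439 with several, 13231 not listed; 111 controls left out).

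Probe sets had to exceed log2 5 on 3 or more of the 34 arrays, and the one of highest mean represented its gene. Both line arrays of 1 dog were averaged, except in the title prefix fits and in a fit that kept them apart. All 3 groups entered 1 limma fit (version 3.58.1, R 4.3.3; lmFit, then eBayes), with Benjamini-Hochberg adjustment over 7849 genes, and an adjusted p under 0.05 with at least a 2-fold difference was called. Lines came from separate dogs. The number of arrays limits precision. The fit was tested on simulated data.

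Named were the 10 members, the 3 genes of largest difference in each other list (lists with fewer than 3 tested genes are given as counts), all partners, and the 10 genes of highest and 5 of lowest r with the members' mean over tissues, among genes with a tissue range of at least 2 and over log2 5 in at least 3 tissues. SPI1, AIF1, CD74, MPO, ATP6V0D2, TCIRG1, CTSK, ITGB3, the other macrophage genes that were higher or did not pass, and further genes named for line 4 and tissue 5 were named after their values were seen. Members and lists were chosen with earlier results of these data known. Alternatives were the filter, the probe set, quantile normalization, the floor, the title prefix, dog as a block and leaving out single samples.

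Line and tissue pair by dog in 2 dogs, per the labels: their deviations from the group means correlated at 0.157 and -0.176, and the estimated block correlation was -0.027.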

Additional observations from a re-analysis of the deposited data

How the results depend on the processing

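All 10 members were called lower in primary lines in every alternative fit except title prefix 3 alone, where CSF1R (-3.32, adjusted p = 0.118 in limma) was not, and the filter at log2 7, which CSF1R did not pass; 9 were called in each. Of 169 member values under 17 alternatives, 168 kept direction and call, but sizes moved: over the alternatives C1QA ran from -7.98 to -3.50, CD163 from -7.05 to -3.40, LAPTM5 from -8.75 to -4.35 and CSF1R from -3.53 to -1.42. With every probe set tested DLA-DQA1 was at -3.03. With dog as a random block, the analysis of pairing by replicate, 10 of 10 members, 11 other macrophage genes and 4 partners were called, as in the fit without it, and 0 members between metastatic and primary lines. The count of other macrophage genes lower in lines was 18 without the filter on dim probe sets, which tested 31, and 7 in title prefix 3 alone. The count of partners was 1 of 7 tested with the filter at log2 7 and 2 in title prefix 3 alone. Pairs of a line and a member over log2 5 numbered 10 at a threshold of log2 4, and 3 without primary line 4, a setting chosen after seeing the data.

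Values that turned direction, none of them called there, were those of IL34 (-0.41), LY96 (-1.26) and LCN2 (-0.63), each with title prefix as a covariate and in title prefix 3 alone, and those of C1S (0.056) and CA2 (0.42) with every probe set tested. The cause was not tested. The same 2 line arrays carry each of those prefix settings. Levels near log2 2 to 3 in lines are background, so differences there have no measured lower side, and single arrays per tissue allow no test between tissues.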
